A study of Mus musculus with 2 samples.

Results

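The EGR transcription factors and a group of immediate-early genes were examined in RAW264.7 cells, a macrophage-like line from a mouse tumour induced by Abelson leukaemia virus. The group held 9 genes, chosen by name: the zinc finger factors Egr1, Egr2 and Egr3, their corepressor Nab2, the immediate early response genes Ier2, Ier3 and Ier5, and the transcription factors Srf and Myc. They were read from 13 of the 20380 probe sets that carried a single gene symbol, and make up 9 of 12393 genes. The control cultures were given IFN-gamma for 4 h at 1000 U/ml. The others were given the same IFN-gamma dose for 4 h together with adenosine, a nucleoside that acts on cell-surface receptors, at 300 uM. Each treatment was hybridized once to an Affymetrix expression array, with RNA pooled from 2 experiments. Both treatments contained IFN-gamma, and no untreated array was analysed here. Because each treatment has a single array, the difference has no replicate check and no p-value, and genes were compared by size.

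Immediate-early genes are transcribed within minutes of a stimulus, by factors already present in the cell. In the best known route, the RAS-ERK kinase cascade phosphorylates ternary complex factors of the ETS family (ELK1, ELK3, ELK4), which sit beside serum response factor, the product of Srf, on a DNA element called the CArG box. The EGR proteins made in this way bind GC-rich sites, and NAB1 and NAB2 bind to EGR proteins and repress their activity, with Nab2 itself known as an EGR target. In macrophages, EGR factors are known for roles in differentiation and in inflammatory gene expression.

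The adenosine array was dimmer over most of its range, with a deposited median signal of 15.2 against 45.9. Signals of that array were therefore multiplied by 2.91, which set the median log2 ratio of probe sets above a floor on both arrays to 0. The floor was 45.0, the 50th percentile of the scaled signals, a convention and not a detection limit. A gene below it on both arrays was called not measured, and a single lower signal was raised to it, so that the fold is given as "at least". Each gene was read from its brightest probe set, and its log2 ratio is adenosine with IFN-gamma over IFN-gamma. At the 2-fold threshold, 638 of 6817 measured genes (9.36%) lay lower with adenosine and 345 (5.06%) lay higher. In the values as deposited these counts were 5605 and 10. Scaling to control transcripts spiked into both hybridizations gave 3538 and 33. Every direction below is therefore relative to the array median unless called deposited. The median log2 ratio of all measured genes was -0.04 on the main scale, -1.50 as deposited and -1.01 after scaling to the spikes. The only error available for a log2 ratio is the disagreement of probe sets that read 1 gene. Its SD was 0.52 over 2370 genes, and 0.41 in the brightest of 4 groups of these by signal. It does not include differences between cultures or between arrays. All 10 macrophage markers were measured on both arrays, from 262 to 6444 on the IFN-gamma array and from 262 to 13789 on the other. Fibroblast, endothelial, epithelial, granulocyte, mast cell and erythroid markers were all below the floor, with summed signals per list of 8.80 to 54.7 and 9.89 to 52.1 on the 2 arrays. Among 8 lymphocyte markers Ighm alone was measured, at 658 and 284 (the list summed to 679 and 301), and the B cell markers Cd79a, Cd79b and Ms4a1 were at 4.30 or less; the part of Ighm-bearing RNA in the results was not tested.

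Of the 9 genes, 7 were measured. Egr1, Egr2 and Nab2 lay past 2-fold on the lower side with adenosine, Ier3 and the brightest Srf probe set past 2-fold on the higher side (the other Srf probe set was lower), and Ier2 and Ier5 lay within 2-fold. Egr3 and Myc were below the floor on both arrays. The 3 lower genes of 7 stand beside 9.36% of all measured genes, and the 2 higher beside 5.06%. In the values as deposited 5 of 8 measured members were lower and none higher, where 78.8% and 0.141% of all genes were, and with spiked-in scaling 5 of 7 were lower and none higher, where 50.7% and 0.473% were; the added lower genes were Ier2 and Ier5 in both. The median log2 ratio of the 7 was -0.51, against -0.04 for all measured genes, and the values ran from -2.76 to 1.06. The group therefore did not move as one. The EGR factors that could be measured and their corepressor lay far on the lower side, whereas the IER genes and the brightest Srf probe set lay near the array median or above it. In RNA from whole cultures, fewer expressing cells and less RNA per cell cannot be told apart.

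**Figure D1:**
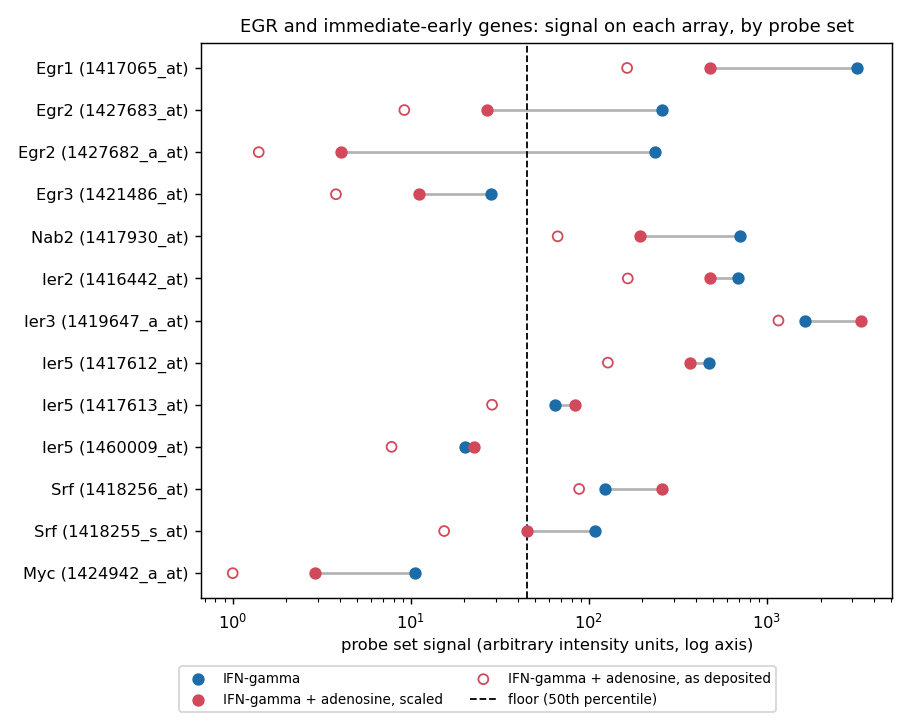
Signal of each of the 13 probe sets of the 9 genes on the IFN-gamma array (blue) and on the adenosine with IFN-gamma array, scaled (filled red) and as deposited (open red), on a log axis in arbitrary intensity units, with the floor of 45.0 dashed. Egr1, both Egr2 probe sets and Nab2 show long gaps to the left from above the floor, Ier3 and one Srf probe set lie to the right after scaling (to the left as deposited), and Egr3 and Myc stay left of the floor on both arrays.

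Egr1 encodes the founding zinc finger factor of the family. Its signal was 3221 with IFN-gamma alone and 477 with adenosine (164 as deposited), 6.75-fold lower, a log2 ratio of -2.76. This was rank 20 from the lowest among 6817 measured genes, and 5.34 times the SD of probe set scatter. The array held 1 Egr1 probe set, so no second reading was available. It was lower under every setting tried, with a log2 ratio that ran from -4.30 as deposited to -2.71 with a pseudocount of 16.

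Egr2 encodes a close relative of EGR1 best known for its role in myelination and in lymphocyte and macrophage regulation. One probe set read 255.9 with IFN-gamma alone and 26.8 with adenosine, below the floor, and was at least 5.69-fold lower. The second read 234.8 and 4.07 and was at least 5.22-fold lower. Both probe sets thus went from well above the floor to below it. Their floored log2 ratios, -2.51 and -2.38, share the same floor and so say nothing of how well the sizes matched. Without a floor the deposited signals gave -4.80 and -7.39, lower on both but far apart in size. The size of the Egr2 difference is set by the floor. With the floor at the 33rd percentile it was -3.26, and with the floor at the 67th percentile, 167.5, it was -0.61 and no longer past 2-fold.

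Egr3, which encodes the third family member, was at 28.1 with IFN-gamma alone and 11.1 with adenosine. Both signals were below the floor and no fold is given. With the floor at the 33rd percentile (8.90) both signals were above it and the log2 ratio was -1.35. The relatives Egr4 (1.30 and 1.16) and Wt1 (5.20 and 1.16) were also below the floor of 45.0 on both arrays.

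Nab2 encodes the corepressor that binds EGR proteins. Its signal was 709 with IFN-gamma alone and 194 with adenosine, 3.65-fold lower (log2 ratio -1.87), at rank 112 from the lowest. Over the settings tried its log2 ratio ran from -3.41 as deposited to -1.78 with quantile scaling. Nab1, the related corepressor gene, was at 1183 and 1114, a log2 ratio of -0.09. A second Nab1 probe set gave 374 and 571, a log2 ratio of 0.61 that becomes -0.93 in the values as deposited. The brightest Nab1 probe set was at -1.63 as deposited and -1.10 with spiked-in scaling, so that Nab1 lay near the array median but past 2-fold lower on those scales. No test of the difference between these genes was possible.

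**Figure D2:**
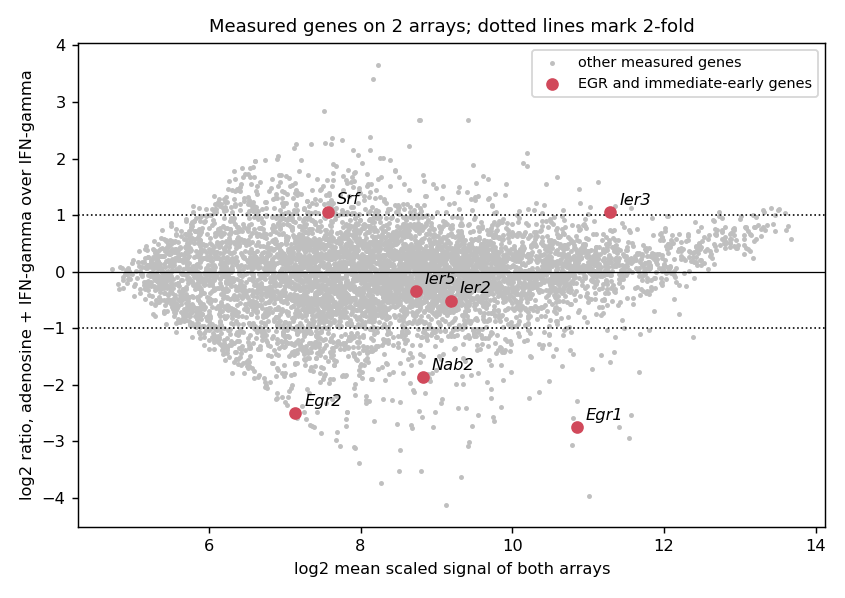
Log2 ratio of adenosine with IFN-gamma over IFN-gamma (vertical) against the log2 mean scaled signal of both arrays (horizontal) for 6817 measured genes (grey) and the 7 measured EGR and immediate-early genes (red); dotted lines mark 2-fold. Egr1, Egr2 and Nab2 lie below the main cloud at -2.76, -2.51 and -1.87, Ier2 and Ier5 inside it, and Ier3 and Srf at its upper edge (both negative as deposited).

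Promoter windows from RefSeq (GRCm38.p6), of 250 bases before and 50 after an annotated start, were available for 5 of the 9 genes: Egr2, Nab2, Ier3, Ier5 and Srf. Egr1, Egr3, Ier2 and Myc are not shown. Windows are shown for 2 genes that were lower, Egr2 and Nab2, for Ier3, which was higher on the scaled arrays, and for Srf, whose probe sets disagreed, because CArG boxes are the element through which SRF acts. Capitals mark CArG boxes and EGR sites (GCGNGGGCG), searched on both strands. The Egr2 window, 1 of 5, is chr10:67537619-67537918 (plus strand). The Nab2 window is chr10:127666654-127666953 (minus strand), that of Ier3 chr17:35821463-35821762 (plus strand) and that of Srf chr17:46556113-46556412 (minus strand).
Egr2: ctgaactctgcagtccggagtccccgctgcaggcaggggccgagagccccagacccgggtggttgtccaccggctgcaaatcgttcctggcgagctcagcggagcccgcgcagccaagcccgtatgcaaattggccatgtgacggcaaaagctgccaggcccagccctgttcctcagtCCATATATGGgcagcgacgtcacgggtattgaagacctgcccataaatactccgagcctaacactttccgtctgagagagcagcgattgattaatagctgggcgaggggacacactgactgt
Nab2: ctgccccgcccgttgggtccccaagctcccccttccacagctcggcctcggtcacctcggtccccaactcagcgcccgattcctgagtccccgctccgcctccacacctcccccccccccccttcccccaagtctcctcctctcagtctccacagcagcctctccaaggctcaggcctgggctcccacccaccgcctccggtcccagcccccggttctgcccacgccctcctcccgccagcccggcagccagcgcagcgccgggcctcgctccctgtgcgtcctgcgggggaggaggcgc
Ier3: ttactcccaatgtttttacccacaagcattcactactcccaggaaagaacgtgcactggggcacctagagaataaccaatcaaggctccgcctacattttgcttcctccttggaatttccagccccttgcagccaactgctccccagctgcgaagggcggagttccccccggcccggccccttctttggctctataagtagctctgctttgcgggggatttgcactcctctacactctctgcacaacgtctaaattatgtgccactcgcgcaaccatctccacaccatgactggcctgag
Srf: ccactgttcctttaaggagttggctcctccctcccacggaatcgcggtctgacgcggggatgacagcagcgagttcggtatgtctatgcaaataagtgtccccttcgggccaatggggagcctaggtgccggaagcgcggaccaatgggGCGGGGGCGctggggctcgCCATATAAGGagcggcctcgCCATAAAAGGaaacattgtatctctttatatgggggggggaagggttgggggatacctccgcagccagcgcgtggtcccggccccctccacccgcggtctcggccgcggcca

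The Egr2 window shown held a CArG box at bases 179 to 188, which 2 further Egr2 windows share because they overlap it. Another window, which does not overlap the one shown, held a different CArG box, so that 4 of the 5 Egr2 windows held 2 distinct sites. The Srf window held a CArG box at bases 169 to 178 and another at 189 to 198, and an EGR site at bases 150 to 158. Over all 32851 windows of the same length, 1.63% held a CArG box and 5.55% an EGR site. Neither was found in the windows of Nab2, Ier3 and Ier5. The core of the cAMP response element, TGACG, was in the same 3 overlapping Egr2 windows and in that of Srf, against 20.8% of all windows, and the full element, TGACGTCA, which contains it, was in none of these and in 1.79% of all. Egr2 and Srf, whose windows carried CArG boxes, had brightest probe sets of opposite sign on the scaled arrays, although the Srf probe sets disagreed. These matches describe letters in a window only.

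Srf itself gave readings that disagree. Its brightest probe set read 123 with IFN-gamma alone and 257 with adenosine, 2.09-fold higher (log2 ratio 1.06). The other, whose name marks targets shared with other transcripts, read 108.6 and 44.8, just below the floor, and was at least 2.41-fold lower. These readings lay 2.33 apart on the log2 scale. Between the 2 brightest measured probe sets, such a gap was reached by 28 of 2773 genes with 2 or more (1.01%). In 14 of those 2773 genes the 2 brightest lay past 2-fold in opposite directions. Further probe sets of a gene were not counted. The mean of both Srf readings was -0.11, and with the array's values as deposited the brightest gave -0.48. No direction can be given for Srf from these arrays.

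Ier3 encodes a stress-inducible protein of early growth and survival responses. It was at 1631 with IFN-gamma alone and 3377 with adenosine, 2.07-fold higher (log2 ratio 1.05), more than the scatter SD of 0.41 among the brightest genes. As deposited, the adenosine signal was 1161, the lower of the pair (log2 ratio -0.49), and after scaling to the spikes the ratio was 0.04. It was 0.95 with quantile scaling and 0.93 with loess scaling, both short of 2-fold. It lay above the median of all measured genes with median, quantile, loess and trimmed mean scaling. It also did so as deposited (-0.49 against -1.50) and with spiked-in scaling (0.04 against -1.01). Its direction against IFN-gamma alone depended on how the arrays were brought to a common level.

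Ier2 encodes a nuclear immediate-early protein. Its signals were 686 and 481, a log2 ratio of -0.51, within 1 SD of the scatter between probe sets. Ier5, which encodes a regulator of heat shock factor, was at 474 and 372 on its brightest probe set (log2 ratio -0.35) and at 64.4 and 83.2 on the second (0.37), with the third below the floor at 20.2 and 22.7. Its measured probe sets took opposite signs on the scaled arrays, and both were negative as deposited (-1.89 and -1.17). Ier2 was at -2.05 as deposited. With spiked-in scaling Ier2 was at -1.52 and the brightest Ier5 probe set at -1.36, so that both lay past 2-fold lower on those scales.

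Myc, the growth-promoting transcription factor gene, was at 10.6 with IFN-gamma alone and 2.91 with adenosine (1.00 as deposited). Both were below the floor, on its single probe set, and no fold is given.

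The genes whose pattern was most like that of Egr1, by distance over the floored log2 signals of both arrays, were the chemokine gene Cxcl9 (0.11), the interferon-induced GTPase gene Gbp7 (0.34) and the chemokine gene Ccl12 (0.40). Their log2 ratios were -2.60, -3.07 and -2.29. With 2 arrays this likeness says only that the signals were close on each.

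**Figure D3:**
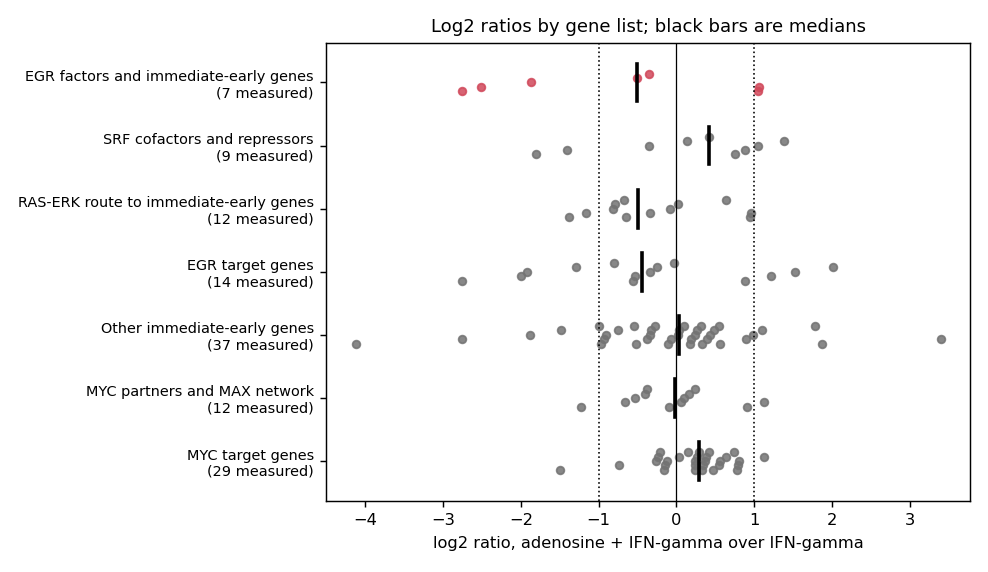
Log2 ratio of adenosine with IFN-gamma over IFN-gamma for every measured gene of the EGR and immediate-early group (red) and of 6 lists of connected genes (grey), with black bars at the medians and dotted lines at 2-fold. The spread is widest for other immediate-early genes, from -4.12 to 3.40. As deposited, all 7 medians are negative. Those above 0 here are for SRF cofactors and related genes (0.41), other immediate-early genes (0.03) and MYC targets (0.29). The first of these lists includes the actin genes Actb and Actg1, and its median was 0.14 with quantile and 0.11 with loess scaling.

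Connected genes were described from lists of the same pathways. Among other immediate-early genes, 37 of 48 were measured. Past 2-fold, 5 were lower and 4 higher, beside 9.36% and 5.06% of all measured genes. The counts were 25 and 1 of 38 in the deposited values, beside 78.8% lower and 0.141% higher among all genes. Scaling to the spikes gave 16 and 1 of 37, beside 50.7% and 0.473%. The median log2 ratio was 0.03, which was -0.02 when the centre was set over probe sets above the deposited floor, -1.36 as deposited and -0.84 with spiked-in scaling. Ptgs2, the inducible cyclooxygenase gene, was lowest at -4.12 (second probe set -2.49). Klf6, a Kruppel-like factor gene, had a log2 ratio of -2.75, but other probe sets gave 0.17 and -1.08. Named after their values were seen, the other lower genes were Jun (-1.88), the antiproliferative gene Btg2 (-1.48) and Cebpd, which was 2.00-fold lower. Fosl2, an AP-1 subunit gene, was 10.6-fold higher from a signal of 49.6, near the floor, and stayed higher as deposited (1.86). Also higher were Junb (1.09, and -0.45 as deposited) and, named after their values were seen, the cAMP-responsive gene Crem (1.87) and the small GTPase gene Rhob (1.78). Fos, a classic SRF target, was at 1699 and 1934, a log2 ratio of 0.19 that becomes -1.35 as deposited. Egr1 and Fos, both textbook immediate-early genes, thus read -2.76 and 0.19 on the same scale, and Jun and Junb -1.88 and 1.09.

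The route from the cell surface to SRF was covered in part. Of 22 genes of the RAS-ERK route, 14 had a single-symbol probe set and 12 were measured, with a median of -0.49. Past 2-fold, 2 were lower and none was higher (2 with quantile scaling), beside 9.36% and 5.06% of all genes. As deposited 9 of 12 were lower (median -2.04), beside 78.8% of all genes. With spiked-in scaling 8 of 12 were lower (median -1.51), beside 50.7%. Rasa1, which encodes a RAS-inactivating protein, was at -1.39 (other probe sets -0.98 and -1.04). Rps6ka3, which encodes the ERK-activated kinase RSK2, was at -1.16 (-0.77 and -0.37). Braf, an upstream kinase gene, was at 0.96, and -0.58 as deposited. The SRF cofactors and related genes, 9 of them measured, had 2 members past 2-fold in each direction, with 1 higher under quantile and loess scaling, beside the same shares of all genes. As deposited 5 of 10 were lower and 0 higher, beside 78.8% and 0.141% of all genes. With spiked-in scaling 3 of 9 were lower and 0 higher, beside 50.7% and 0.473%. The lower were the ternary complex factor genes Elk3, at 585 and 168 (log2 ratio -1.80), and Elk4, at 257.9 and 97.2 (-1.41). Other probe sets gave -0.995 and -0.40 for Elk3 (both with the adenosine signal raised to the floor) and 0.57 for Elk4 (with the IFN-gamma signal raised), so the Elk4 direction rests on 1 probe set. Elk4 was short of 2-fold with the floor at the 67th percentile (-0.62). Elk1 went from 34.6, below the floor, to 83.2. Higher were Mrtfa, an actin-regulated SRF coactivator gene (1.39), and, named after its value was seen, Actb (1.05, second probe set 3.18). On their brightest probe sets both were negative as deposited (-0.15 and -0.49). Mrtfa fell short of 2-fold with the floor at the 67th percentile (0.28).

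Of 20 genes listed as EGR targets, 14 were measured, with a median of -0.44. Past 2-fold, 4 were lower and 3 higher, beside 9.36% and 5.06% of all genes. As deposited 10 of 14 were lower and 0 higher (median -1.79), beside 78.8% and 0.141% of all genes. With spiked-in scaling 10 of 14 were lower and 0 higher (median -1.31), beside 50.7% and 0.473%. Pdgfb, the platelet-derived growth factor B gene, was at 712 and 105 (log2 ratio -2.76, second probe set -0.98). Plau, the urokinase gene, was at 1044 and 262 (-1.99, second probe set -1.64). The other lower genes, named after their values were seen, were Tnf (-1.92) and the ubiquitin ligase gene Itch (-1.29). Vegfa, the angiogenic growth factor gene, was at 2.01, but its second probe set gave -0.078. Id3, an inhibitor of helix-loop-helix factors (1.53), and Pdgfa (1.22, second probe set 0.06), named after their values were seen, were higher, and are -0.01 and -0.32 as deposited.

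Genes around Myc were read from a pair of lists. Of 16 partners and MAX network genes 12 were measured, with 1 past 2-fold in each direction and a median of -0.02 that was 0.02 with quantile scaling. As deposited 9 of 13 were lower (median -1.44), beside 78.8% of all genes. With spiked-in scaling 5 of 13 were lower (median -0.91), beside 50.7%. Max, the obligate partner of MYC, was at 460 and 353 (log2 ratio -0.38). Mlxip, the MondoA gene, was at -1.23 (-0.70 under a floor set at percentile 67), and Mxi1, a MAX-binding repressor gene, at 0.91 (second probe set 2.37). Mycn was at 1.13 on its brightest probe set and at 0.42 and -1.45 on others, and -0.41 as deposited, so no direction can be given for it. Of 29 measured MYC target genes, Ccnd2, the cyclin D2 gene, was lower (-1.50, with other probe sets from -2.32 to -0.39). Pa2g4 was higher (1.13, with other probe sets from 0.23 to 1.08, and -0.41 as deposited). With loess scaling Pa2g4 was short of 2-fold (0.95). The median of the 29 was 0.29, which is -1.27 as deposited and -0.72 after scaling to the spikes. The 2-fold counts of both lists on the main scale stand beside 9.36% lower and 5.06% higher among all measured genes.

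**Figure D4:**
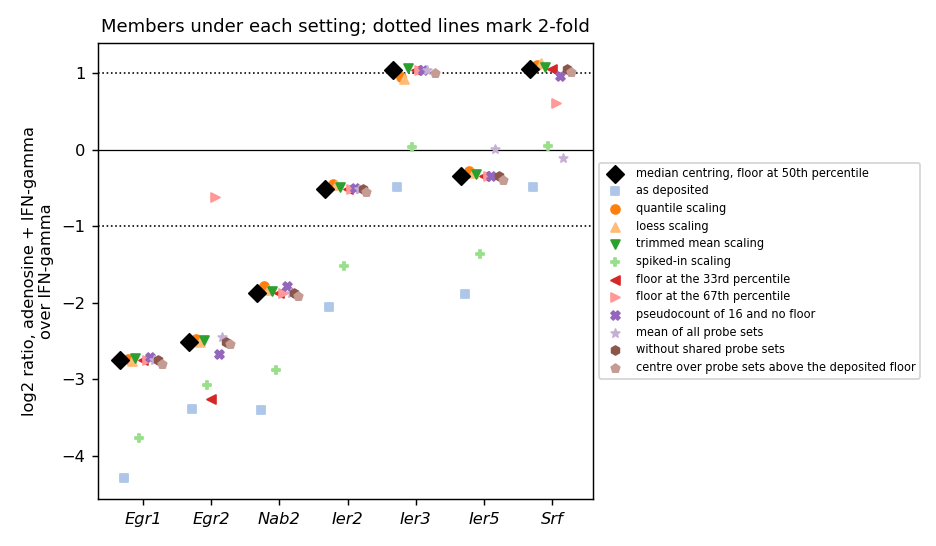
Log2 ratio of each of the 7 measured EGR and immediate-early genes under the main setting (black diamonds) and 11 alternatives for scaling, floor and choice of probe sets; dotted lines mark 2-fold. Egr1 and Nab2 stay below -1 throughout and Egr2 in all but the floor at the 67th percentile (-0.61), whereas Ier3 and Srf cross 0 in the values as deposited (-0.49 and -0.48) and Srf also with the mean of its probe sets (-0.11).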

How the data were processed

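Gene expression was measured on 2 arrays, 1 per treatment, each of RNA pooled from 2 experiments, per the labels' series design text. The authors deposited linear probe set intensity values for 22690 probe sets. The submitters' processing notes name the Affymetrix software GCOS; how it computed and scaled the signal is not given in the sources used here. After removal of 64 control probe sets, 20380 probe sets carried 1 gene symbol, 691 several and 1555 none in the platform annotation, and the last 2 kinds were left out. Symbols of 20351 were matched to RefSeq (GRCm38.p6) by Entrez identifier.

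The centring was iterated until the floor, the 50th percentile of both scaled arrays, and the median shift (-1.54 on the log2 scale) no longer moved. Calculations used Python 3.11.15, numpy 2.4.6, pandas 2.3.3 and statsmodels 0.14.6 (loess span 0.3), and were tested on simulated data. The simulated arrays differed by a constant shift, so that test cannot bear on the choice of scaling. The number of arrays limits the precision. Genes named were all 9 members, 8 relatives and partners, the 3 largest absolute log2 ratios in each of 7 lists, and the 3 genes nearest to Egr1. Members and lists were chosen with earlier results of these data known.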

Additional observations from a re-analysis of the deposited data

How the results depend on the processing

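No paired analysis was possible because there was a single array per treatment; for the same reason no replicate was left out. Egr1 and Nab2 stayed at least 2-fold lower under all alternatives run for them. Of the 9 genes, 5 were at least 2-fold lower and 0 higher as deposited, and likewise with spiked-in scaling, against 3 and 2. The lower count was 4 with the floor at the 33rd percentile, which adds Egr3, and 2 at the 67th, which drops Egr2. The higher count was 1 with quantile or loess scaling, the 67th percentile floor, the pseudocount of 16 and the mean of all probe sets. It was also 1 without shared probe sets (which leaves no Ier3 probe set), and 0 at 3-fold. Probe sets were called shared by name only, if ending in _s_at, _x_at or _a_at. The Ier3 probe set and the brightest of Vegfa end in _a_at, the second of Srf in _s_at. Whether they read other genes was not tested. The median log2 ratio was -1.97 as deposited, -1.52 with spiked-in scaling and -1.19 without shared probe sets. As deposited, signs turned negative for Ier3 (-0.49), Srf (-0.48), Junb (-0.45), Mrtfa (-0.15), Mycn (-0.41), Pa2g4 (-0.41), Actb (-0.49), Id3 (-0.01) and Pdgfa (-0.32). All of these were past 2-fold higher before. The sign also turned negative for Fos (-1.35), Braf (-0.58), Mxi1 (-0.63), Cad (-0.74), Elk1 (-0.27) and Cebpb (-0.56), which were within 2-fold. Srf reversed with the mean of all probe sets (-0.11) and Vegfa without shared probe sets (-0.078). The values as deposited and spiked-in scaling move all unfloored ratios by the same amount; otherwise the cause was not tested. Of all genes, the 2-fold counts lower and higher were 880 and 660 for the 33rd percentile floor and 303 and 148 for the 67th. At 1.5-fold they were 1378 and 967, and at 3-fold 189 and 77. Of 2-fold calls 64.9% were lower, 99.8% as deposited and 99.1% with spiked-in scaling. A centre set over probe sets above the deposited floor, added after seeing the data, gave 691 and 308, and the same counts for the 9 genes.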

Other observations

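Probe sets also differed for some listed genes. Zfp36l1, an immediate-early mRNA decay factor gene, had a log2 ratio of -0.27 on its brightest probe set and 2.09 on the second. Id2, a listed EGR target that encodes an inhibitor of helix-loop-helix factors, gave -0.24 and 1.07. Cebpb, a transcription factor gene of macrophage activation, gave 0.98 and 1.69, both on the higher side of the scaled arrays. Its brightest probe set was negative as deposited (-0.56). These genes were named after their values were seen.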
